A study of Mus musculus with 16 samples.

Results

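The genes described here encode the proteins of the cytosolic ribosome, in bone of wild type mice after ovariectomy (titled OVX), the removal of the ovaries, or after a sham operation (titled NC). Members were chosen by symbol, as genes named Rpl or Rps with a number, with Rplp0, Rplp1, Rplp2 and Rpsa, leaving out the Rps6k kinases and pseudogenes marked -ps. This gave 90 genes, of which 89 had a mean count above 0, out of 25239 genes in the RNA table, and 22 of 13083 peaks in the table of N6-methyladenosine (m6A). Each arm had 4 libraries of antibody-selected RNA fragments (IP) and 4 input libraries, 16 in all, and the labels analysed here give no age of the animals. The treatment field reads ovariectomy for every IP library, those titled NC included, so the title was used. The labels do not say whether each library came from a separate animal, so the spread behind a p-value may be technical. The numerator of the differences is recorded in neither table and could be either arm in each of them, so every difference keeps its deposited sign, positive or negative. Values of single libraries were not analysed here, so whether the arms overlap for a gene cannot be shown.

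A ribosome joins a small subunit, which reads the messenger RNA, to a large subunit, which forms the peptide bond. Each protein is needed in about equal number, and the cell matches their supply to ribosomal RNA made in the nucleolus. Their messenger RNAs are known for a run of pyrimidines at the very start (the TOP motif), through which mTOR and Larp1 control their translation. In the marrow, red cell precursors are sensitive to loss of single ribosomal proteins, as in Diamond-Blackfan anaemia of humans. m6A, a methyl group on adenosines inside RNA, is often found near stop codons and in long exons of other messengers.

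The label fitted most members. Rps19bp1, a partner of the deacetylase Sirt1, and Rpl7l1, a factor of large subunit assembly, are taken by their names and are counted among the members. Fau, whose product joins a ubiquitin-like part to a ribosomal protein, and Rack1 are ribosomal by function but not by symbol. The 89 members with counts divide into 53 of the large subunit and 36 of the small subunit by name. They took 4.19% of all mean normalized counts in the authors' deposited table. Their median mean count was 13454 (quartiles 5993 and 30301), against 853 for all 15396 genes with an adjusted p in the authors' deposited table. These counts are not divided by transcript length and only show how many reads stand behind each value. Markers of bone were present, with 10 osteoblast genes summing to a mean count of 274000, beside 692000 for 12 erythroid, 770000 for 12 neutrophil and 944000 for 12 skeletal muscle genes in the authors' deposited table.

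Ribosomal protein RNA differed little between the arms. Of 88 members with an adjusted p in the authors' deposited table, 5 passed 0.05, all positive, and none passed with a negative sign. Over all genes 12.2% were called, 6.07% positive and 6.11% negative. The positive share of the members, 5.68%, lay near that of all genes, and their negative share lay below it. At means of at least 5000 counts, 5 of 71 members (7.04%) were called, beside 317 of all 1963 such genes (16.1%). These 317 were 193 positive and 124 negative in the authors' deposited table. At an unadjusted p under 0.05, 9 of 88 members passed, beside 25.7% of all genes. All 9 were positive and none negative, beside 12.1% and 13.6% of all genes, and Rps16, Rpl28, Rps29 and Rps21 were the 4 that failed only the adjustment. The median log2 fold change of the 88 members was 0.03 (quartiles -0.07 and 0.09), against -0.02 over all genes tested, in the authors' deposited table. Of the members 53 were positive (60.2%) and 35 negative, beside 46.7% positive over all genes tested. At means of at least 5000 counts the median was 0.03 for members and also for all genes in the authors' deposited table. In that class 57.7% of members and 55.9% of all genes were positive.

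The 5 called genes changed by small amounts, and 4 of them are described. Rps2, which lines the channel where the messenger enters, had the largest difference among members with SE up to 0.15, with a log2 fold change of 0.35 ± 0.08 (SE) or 27.0% in the authors' deposited table (adjusted p = 0.0016). Rps26, which lies where the messenger leaves and contacts its sequence before the start codon, had 0.20 ± 0.06 in the authors' deposited table (adjusted p = 0.017). On the large subunit, Rpl13, whose variants cause a skeletal dysplasia in humans, stood at 0.20 ± 0.06 in the authors' deposited table (adjusted p = 0.015). Rpl18, another protein of the large subunit, stood at 0.18 ± 0.06 in the authors' deposited table (adjusted p = 0.02). All 5 intervals excluded 0, which the calls made certain, since both rest on the same SE. The highest upper limit was a difference of 42.5%, for Rps2.

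The starts of these 4 genes are shown because a pyrimidine run at the start is the known mark of this family. Each window holds 45 bases before and 30 from the RefSeq start in build GRCm38.p6, and capitals mark runs of at least 7 C or T letters. The positions are chr17:24720018-24720092 (plus strand) for Rps2, chr8:123102305-123102379 (plus) for Rpl13, chr10:128626477-128626551 (minus) for Rps26 and chr7:45718026-45718100 (plus) for Rpl18.
Rps2: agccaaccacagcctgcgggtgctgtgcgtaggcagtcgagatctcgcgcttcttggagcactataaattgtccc
Rpl13: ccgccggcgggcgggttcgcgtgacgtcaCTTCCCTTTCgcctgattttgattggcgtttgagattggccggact
Rps26: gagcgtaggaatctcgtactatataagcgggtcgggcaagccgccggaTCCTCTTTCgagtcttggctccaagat
Rpl18: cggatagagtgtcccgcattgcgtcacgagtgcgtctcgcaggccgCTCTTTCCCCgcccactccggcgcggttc
Rpl13, Rps26 and Rpl18 held 1 run each in this window, before the listed start in Rpl13 and just after it in Rps26 and Rpl18. Rps2 held none, and TATAAA lies after its listed start. The listed starts were not checked against measured starts of the messengers, so a run at another start would be missed. Of the 68 members with a start in the RefSeq table, taking the first start listed, 46 (67.6%) held such a run, against 41.3% of 27025 genes. These 27025 genes, also the background for the motifs below, were not matched for expression. They outnumber the 19049 genes with a mean count above 0. Whether other genes of high count hold these motifs as often was not tested. Runs were read on the strand that matches the messenger. A run anywhere in the window counted, before the start included, so these are not counts of TOP motifs. GGAAG, the core read by ETS factors such as GABPA, was in 62 of 68 members (91.2%) on either strand within 250 bases before and 50 from the start, against 71.1% of all genes. AAGATGGC, the core of the YY1 motif, was in 5 members (7.35%) on either strand of the same span, against 2.88% of all genes. TATAAA was in 4 members (5.88%) on either strand of the shorter window, against 4.37% of all genes. The reverse complement of the ETS core can lie inside a pyrimidine run, as in Rpl13. A match to these letters is a description of the sequence and not a bound site.

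**Figure D1:**
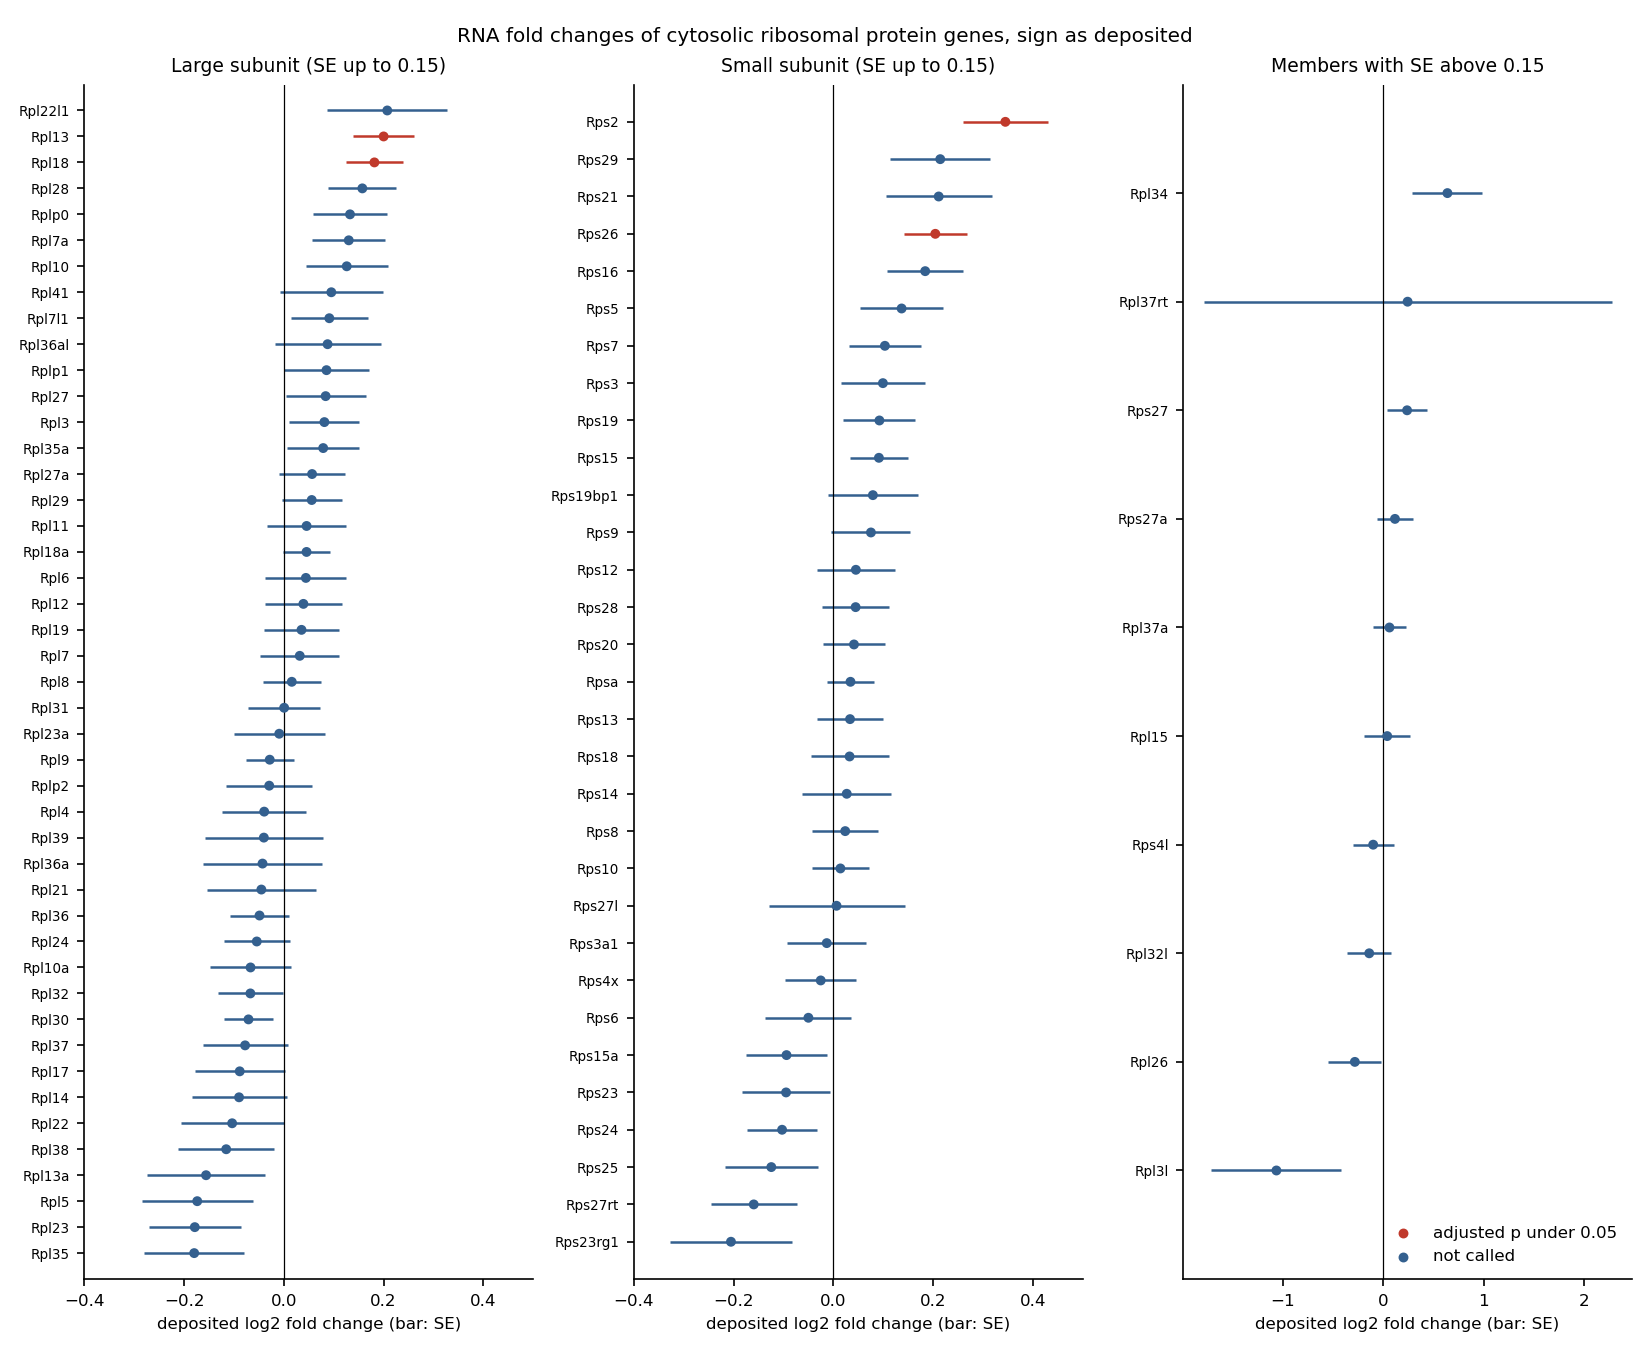
Deposited log2 fold change (x axis) of 86 of the 88 members with an adjusted p, with its SE as a bar, for large subunit genes, small subunit genes and the 10 members with an SE above 0.15, which have a wider axis. Red points mark 4 genes with an adjusted p under 0.05, all to the right of 0, and the other members with small SE lie between -0.21 and 0.21.

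Most other members were measured closely enough to bound their change. The median SE of the 88 members was 0.08, against 0.17 over all genes tested, in the authors' deposited table. For 60 members (68.2%) the 95% interval lay inside ± 0.3 on the log2 scale, as it did for 16.3% of all genes tested. This limit was chosen after the values were seen. Where the mean reached 5000 counts, this held for 55 of 71 members (77.5%) and for 34.8% of all 1963 such genes in the authors' deposited table. In this class the fold changes of members had an SD of 0.11 and those of all genes an SD of 0.35. An absolute fold change of at least 0.3 was listed for 1 of these 71 members (1.41%) and for 19.2% of all 1963 genes in the authors' deposited table. Across members, SE and mean count had a Spearman rho of -0.32 (n = 88 genes, which share the same libraries).

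**Figure D2:**
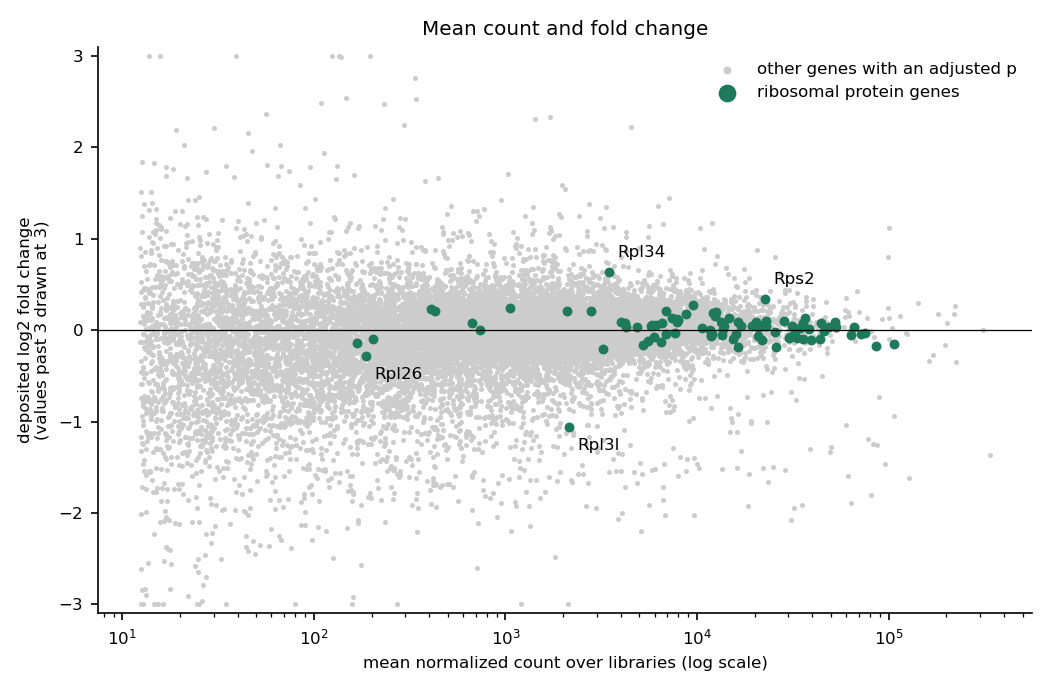
Mean normalized count (x axis, log scale) against deposited log2 fold change (y axis) for all genes with an adjusted p (grey) and the 88 members (green). The members lie close to 0 at high counts, and Rpl3l at -1.07 and Rpl34 at 0.64 stand farthest from it.

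**Figure D3:**
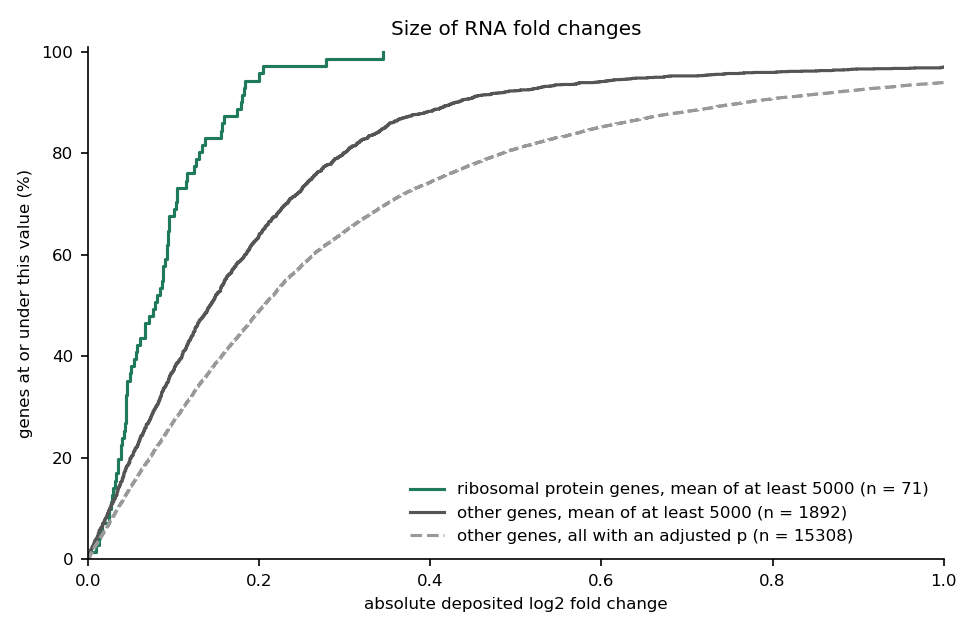
Share of genes (y axis, %) at or under a given absolute deposited log2 fold change (x axis), for the 71 members with a mean of at least 5000, other genes in that class and other genes of any count. The members' curve lies to the left, with 69.0% of them under 0.1.

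By subunit, the small subunit had 3 of 36 members called (8.33%) and the large subunit 2 of 52 (3.85%), all positive, beside 6.07% of all genes called positive in the authors' deposited table. Positive signs were listed for 25 small subunit members and 28 large subunit members, with medians of 0.04 and 0.02 in the authors' deposited table. The difference between the subunits was not tested. Of 8 proteins around the messenger channel and decoding site, 2 were called, Rps2 and Rps26, too few genes to set against that share, and 7 were positive (median 0.10) in the authors' deposited table. The negative member was Rps23, at the decoding centre, with -0.09 ± 0.09 in the authors' deposited table. None of 8 proteins around the exit of the peptide tunnel was called, and 6 were negative (median -0.06) in the authors' deposited table. Rpl35, a docking site at that exit, had -0.18 ± 0.10 and Rpl26 had -0.28 ± 0.27 in the authors' deposited table. Of the beak of the small subunit, none of 3 was called, with 0.12 ± 0.18 for Rps27a, made as a fusion with ubiquitin, and 0.05 ± 0.08 for Rps12 in the authors' deposited table.

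The stalk that recruits elongation factors had none of its 4 genes called. Rplp0, the stalk base, stood at 0.13 ± 0.07 and Rplp1 at 0.09 ± 0.09 in the authors' deposited table. Rplp2 stood at -0.03 ± 0.09 and Rpl12 at 0.04 ± 0.08 in the authors' deposited table. Rpl5 and Rpl11, which carry the 5S ribosomal RNA and can bind Mdm2 when ribosome assembly fails, had -0.17 ± 0.11 and 0.05 ± 0.08 in the authors' deposited table. Neither was called, and the interval of Rpl5 ran from a difference of -23.8% to one of 3.2%. Rps6, the substrate of S6 kinases, had -0.05 ± 0.09 in the authors' deposited table. Rpsa, also known as the laminin receptor, had 0.03 ± 0.05, among the smallest errors in the authors' deposited table. The 5 members with the highest mean counts, Rpl13a, Rpl5, Rplp2, Rpl4 and Rpl19, ran from 66187 to 106926 counts and none was called in the authors' deposited table. Rpl13a, which also has a role in silencing inflammatory messengers, stood at -0.16 ± 0.12, Rpl4 at -0.04 ± 0.08 and Rpl19 at 0.04 ± 0.07 in the authors' deposited table.

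Of 18 members whose genes are mutated in human Diamond-Blackfan anaemia, 2 passed, Rps26 and Rpl18, and 13 were positive (median 0.05) in the authors' deposited table. Their called share was 11.1%, all positive, beside 12.2% of all genes called and 6.07% called positive. These 2 are too few genes to set against either share. Rps19, the gene most often mutated in that disease, had 0.09 ± 0.07 in the authors' deposited table. Rps24 had -0.10 ± 0.07, and Rps7 and Rps10 had 0.10 ± 0.07 and 0.01 ± 0.06 in the authors' deposited table. Rpl35a had 0.08 ± 0.07 and Rpl15 had 0.04 ± 0.23 in the authors' deposited table. Erythroid markers moved more: of 11 tested, 9 were positive and 2 negative, with a median of 0.44 in the authors' deposited table. The 5 of them that were called were positive. B cell precursor markers were all positive and all 12 called (median 1.40), and of 12 dividing cell markers, all positive, 2 were called (median 0.28), in the authors' deposited table. All 12 skeletal muscle markers were negative and 3 were called (median -1.35) in the authors' deposited table. Of 12 neutrophil markers, 3 positive and 9 negative, none was called (median -0.22) in the authors' deposited table. The 10 osteoblast markers were 5 positive and 5 negative, and 3 were called, all positive (median 0.01), in the authors' deposited table. All 7 osteoclast markers were negative and 1 was called (median -0.54) in the authors' deposited table. Plasma cell markers had 2 called positive and 2 negative of 7 (median -0.33) in the authors' deposited table. The part of these cell types in the ribosomal protein values was not tested, and in bulk bone a change in the number of cells of a type and a change in RNA per cell cannot be told apart.

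Some members are copies of another ribosomal protein gene, and of a list of 9 such copies none of the 7 with an adjusted p was called. Rpl3l, which replaces Rpl3 in skeletal and heart muscle, had the most negative value of all members, -1.07 ± 0.65 in the authors' deposited table (adjusted p = 0.3). Its interval ran from -2.34 to 0.20 and so included 0. The part of muscle content in this value was not tested. Rpl3 itself had 0.08 ± 0.07 in the authors' deposited table. Rpl22l1, which can stand in for Rpl22, had 0.21 ± 0.12 and Rpl22, needed for lymphocyte development in mice, had -0.10 ± 0.10 in the authors' deposited table. Whether these fold changes of opposite sign differ from each other was not tested.

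The starts of the copies Rpl3l, chr17:24727781-24727855 (plus), and Rpl22l1, chr3:28805463-28805537 (plus), and of Rpl22, chr4:152325681-152325755 (plus), are shown as above to set the muscle copy beside a broadly expressed pair. The first 2 lines are the copies, and capitals again mark runs of C or T.
Rpl3l: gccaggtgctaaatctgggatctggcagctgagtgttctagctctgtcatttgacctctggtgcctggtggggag
Rpl22l1: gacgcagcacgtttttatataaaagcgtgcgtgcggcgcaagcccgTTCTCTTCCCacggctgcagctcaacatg
Rpl22: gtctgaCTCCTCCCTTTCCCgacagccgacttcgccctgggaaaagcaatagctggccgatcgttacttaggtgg
No run of this length was in the Rpl3l window. Rpl22l1 held 1 just after the start and Rpl22 held 1 before it.

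Of the other copies, Rpl36al had 0.09 ± 0.11 beside -0.04 ± 0.12 for Rpl36a, and Rpl7l1 had 0.09 ± 0.08 beside 0.03 ± 0.08 for Rpl7 in the authors' deposited table. Rps27l, a target of p53, had 0.01 ± 0.14 beside 0.24 ± 0.20 for Rps27 in the authors' deposited table. Rps4l had -0.10 ± 0.21 beside -0.03 ± 0.07 for Rps4x, and Rps27rt had -0.16 ± 0.09 in the authors' deposited table. Rpl39l, a copy known from male germ cells, had a mean of 5.04 counts, 1.28 ± 2.63 and no adjusted p, beside -0.04 ± 0.12 for Rpl39 in the authors' deposited table. Rpl10l, which replaces Rpl10 in male germ cells, was listed at a mean of 0, and Rpl10 had 0.13 ± 0.08 in the authors' deposited table. The germ cell markers Prm1, Prm2, Tnp1 and Tnp2 summed to a mean of 6.01 counts in the authors' deposited table.

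The widest errors lay with 10 members above an SE of 0.15, and not all of these had low counts. Rpl37rt, a copy of Rpl37, had an SE of 2.03 at a mean of 1056 counts, and 0.24 as its fold change in the authors' deposited table. Rpl34 had 0.64 ± 0.35 at a mean of 3483 counts in the authors' deposited table (adjusted p = 0.23). Its pseudogene row Rpl34-ps1 had a mean of 21413 counts and -0.16 ± 0.09 in the authors' deposited table. Rpl26 and Rps27 had means of only 187 and 410 counts in the authors' deposited table. Rps27rt, whose name marks a copy of Rps27, had 5227 counts in the authors' deposited table. Rps23rg1, a copy of Rps23 which like Rpl37rt is outside the list of 9 copies, had 3231 counts and -0.21 ± 0.12 in the authors' deposited table (adjusted p = 0.28). How the authors counted reads shared by near-identical copies is not stated in the labels, so values of members with such copies, Rpl34, Rps27 and Rps23 among them, are uncertain. Whether reads were split between them was not tested. Of the 9 rows marked as ribosomal protein pseudogenes, 7 were negative and 1 was called, Rplp2-ps1 with -4.07 ± 1.01 in the authors' deposited table, while its parent gene Rplp2 had -0.03.

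In the lists of genes that build ribosomes, the called shares lay near or under the 12.2% of all genes. Over all genes 6.07% were called positive and 6.11% negative, and each of these lists held few called genes. Of 17 genes of ribosomal RNA transcription by polymerase I, 1 was called positive, Tcof1, the treacle protein of the nucleolus, with 0.39 ± 0.08, and 1 negative, Cd3eap, a polymerase I subunit, with -0.35 ± 0.09 in the authors' deposited table. These 2 made up 11.8% of the list, and its median was 0.04. Among 9 proteins of the nucleolar particles that modify ribosomal RNA, Snu13 was called (11.1%) with 0.25 ± 0.08 in the authors' deposited table (list median 0.06). Of 33 members of the small subunit processome, which trims the early precursor, 3 were called (9.09%), all positive, in the authors' deposited table (median 0.03). These were Emg1 with 0.32 ± 0.08, Dhx37 with 0.38 ± 0.11 and Utp23 with 0.37 ± 0.11 in the authors' deposited table.

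Of 47 large subunit assembly factors, 4 were called (8.51%), all positive, in the authors' deposited table (median 0.02). The helicases Ddx54 and Ddx51 had 0.33 ± 0.08 and 0.31 ± 0.11, Bop1 had 0.24 ± 0.08 and Nvl had 0.22 ± 0.07 in the authors' deposited table. Among 11 late small subunit factors, 1 was called (9.09%), Rrp7a with 0.22 ± 0.07, and 9 were negative (median -0.12) in the authors' deposited table. None of 13 export factors and chaperones was called (median 0.01), and the smallest p in that list belonged to Ltv1 with -0.23 ± 0.10 and the exportin Xpo1 with 0.15 ± 0.09 in the authors' deposited table.

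Of 15 genes that control TOP messengers, 2 were called (13.3%), near the share of all genes, with a list median of 0.08 in the authors' deposited table. Mtor, the growth kinase that drives translation of these messengers, had 0.30 ± 0.05 in the authors' deposited table (adjusted p = 1.4e-06). Larp1b, a relative of the TOP-binding protein Larp1, had -0.27 ± 0.08, and Larp1 had -0.01 ± 0.09 in the authors' deposited table. Mtor and Larp1b were the 2 called genes. Of 14 genes of ribosome quality control, Trp53, which is stabilised when Rpl5 and Rpl11 bind Mdm2, was the 1 called (7.14%), with 0.33 ± 0.11 in the authors' deposited table (median 0.07). Other TOP messengers had 1 of 18 called (5.56%), Hnrnpa1 with 0.30 ± 0.10, and a median of 0.05 in the authors' deposited table. The ribosomal genes outside the rule stood at 0.05 ± 0.09 for Fau and 0.08 ± 0.06 for Rack1 in the authors' deposited table. Of 78 mitochondrial ribosomal proteins, 1 was called, with a positive sign (1.28%), and their median was 0.01 in the authors' deposited table.

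Few ribosomal protein messengers carried an m6A peak. At least 1 peak was listed in the authors' deposited table for 18 of 89 members (20.2%), against 41.9% of 16241 other genes with a mean count in the members' range. At means of at least 5000 counts the shares were 16 of 71 members (22.5%) and 1432 of 1893 other genes (75.6%) in the authors' deposited table. Between 5000 and 10000 counts, 1 of 17 members (5.88%, exact 95% binomial interval 0.149 to 28.7) and 75.2% of other genes (72.6 to 77.8) had a peak in the authors' deposited table. At 40000 counts or more, the shares were 5 of 12 members (41.7%, exact interval 15.2 to 72.3) and 60.3% of other genes (48.5 to 71.2), and these intervals overlap. The intervals cover counting error only and take genes as independent, and whether the shares differ was not tested.

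The members are short genes, with a median genomic span of 3.18 kb in RefSeq, against 29.1 kb for other genes with means of at least 5000 counts. Among genes of that count class spanning at most 4.6 kb, the third quartile of the members, 9 of 55 members (16.4%) and 58 of 130 other genes (44.6%) had a peak in the authors' deposited table. Of the mitochondrial ribosomal proteins, 31 of 78 (39.7%) had one. Transcript length was not tested.

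**Figure D4:**
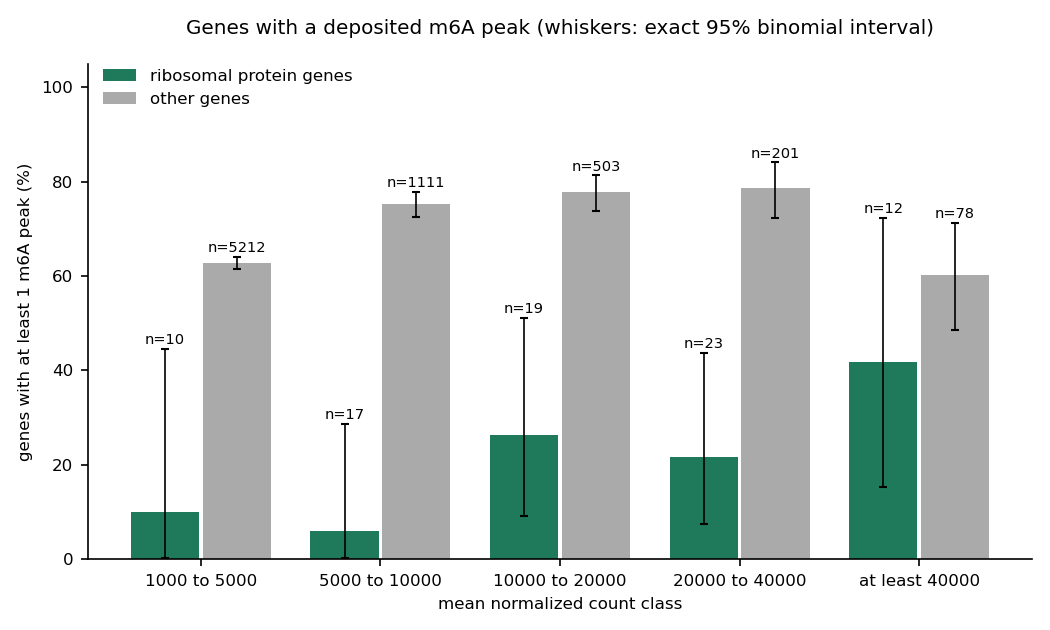
Share of genes with at least 1 deposited m6A peak (y axis, %) by class of mean normalized count (x axis), for members (green) and other genes (grey), with exact 95% binomial intervals and the number of genes. Members have the lower share in each class, from 5.88% to 41.7%, and in the highest class the intervals overlap.

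Peaks were listed for 14 large subunit members and 4 small subunit members in the authors' deposited table. Rpl5 carried 3 peaks, Rpl6 and Rps6 carried 2 each, and 15 members carried 1. The 22 peaks had a median enrichment of 1.75 in IP over input (range 1.17 to 2.63), against 1.82 over all peaks in the authors' deposited table. They covered a median of 145 exonic bases (range 97 to 444), against 151 over all peaks, and 12 of 22 (54.5%) spanned more than 1 exon block, against 40.1% of all peaks in the authors' deposited table. The sequences under these peaks are not shown, since sequence around gene starts but no whole mouse genome was used here.

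The strongest enrichment was 2.63, in the third peak of Rpl5 (chromosome 5, 107908316 to 107908464, plus strand), in the authors' deposited table. Rps6 followed with 2.60 (chromosome 4, 86854746 to 86854895, minus strand) and 2.52 (86854547 to 86854646) in the authors' deposited table. Rpl14 had 2.50 (chromosome 9, 120572788 to 120573786, plus strand) over 3 exon blocks, and Rpl4 had 2.31 (chromosome 9, 64178014 to 64178464, plus strand) over 2 in the authors' deposited table. Rps24, whose messenger is spliced in several forms, had 2.17 (chromosome 14, 24491985 to 24494051, plus strand) in the authors' deposited table. The lowest value, 1.17, was that of Rps4l (chromosome 6, 148355398 to 148355497, plus strand) in the authors' deposited table. The pseudogene rows Rps6-ps4 and Rpl14-ps1 also carried 1 peak each, and whether fragments were shared between these copies was not tested.

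Between the arms, no peak of a member passed an FDR of 0.05, beside 3 of all 13083 peaks (0.0229%) in the authors' deposited table. At a difference p under 0.05, 4 of 22 member peaks were called, 2 positive and 2 negative, beside 4.92% of all peaks in the authors' deposited table. Positive calls made up 3.60% of all peaks and negative calls 1.32%. The second peak of Rpl6 (chromosome 5, 121207191 to 121208485, plus strand) had the smallest p, 0.00013, with a log2 difference of -0.07 and an FDR of 0.17 in the authors' deposited table. Rpl7 (chromosome 1, 16103284 to 16103557, minus strand) had 0.11 (p = 0.0037) and Rpl10a (chromosome 17, 28329513 to 28330611, plus strand) had -0.16 (p = 0.0095) in the authors' deposited table. Rpl17 had 0.10 (p = 0.034) in the authors' deposited table. All 4 were small, with a median absolute log2 difference of 0.10, against 0.31 among all called peaks in the authors' deposited table. The largest log2 difference among member peaks, 0.515 in the third peak of Rpl5, had a p of 0.28, and that of Rps15a, 0.37, a p of 0.7 in the authors' deposited table. The size of a difference and its p thus did not rank the member peaks in the same order. Of the 22 peaks 17 were positive (77.3%), beside 60.6% of all peaks, and their median log2 difference was 0.10 against 0.05 in the authors' deposited table.

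**Figure D5:**
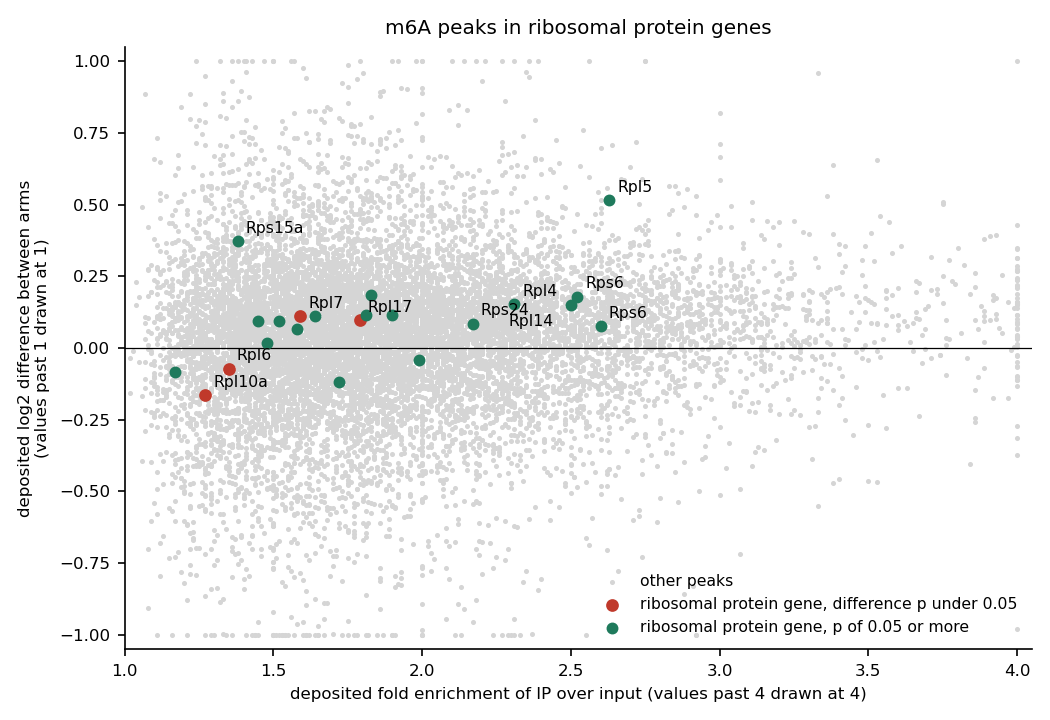
Deposited fold enrichment of IP over input (x axis) against the deposited log2 difference between the arms (y axis) for all peaks (grey), the 4 member peaks with a difference p under 0.05 (red) and the other 18 member peaks (green). The red points lie between -0.16 and 0.11, close to 0, and the highest member point is Rpl5 at 0.515.

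RNA fold changes of members with and without a peak had different signs for the most part. Of the 18 members with a peak, 13 were negative (72.2%), with a median of -0.05 and a range from -0.18 to 0.09 in the authors' deposited table. Of the 70 tested members without one, 22 were negative (31.4%), with a median of 0.05 in the authors' deposited table. None of the 5 called genes carried a peak, too few genes to set against the 20.2% of all 89 members with one. Among other genes with means of at least 5000 counts, 43.2% of 1432 with a peak and 47.2% of 460 without one were negative in the authors' deposited table. Members with a peak also had the higher median mean count, 26656 against 12272, and across members fold change and mean count had a Spearman rho of -0.18 (n = 88 genes, which share the same libraries). This contrast was noticed after the values were seen, no test was run on it, and the part of read depth in it was not tested.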

How the data were processed

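Messenger RNA and m6A were profiled in mouse bone. Groups were taken from the library titles, and both tables hold comparisons made by the authors, without columns for individual libraries. HISAT2, StringTie and DESeq are listed in the submitters' processing notes beside rn6, a rat build, with neither version nor role. Of 13026 peaks with a symbol in the RefSeq annotation of mouse build GRCm38.p6, 13000 (99.8%) lay inside the gene of that name. Peak starts were counted from 1, by adding 1 to the BED start.

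Per the file headers, the authors deposited for each gene a mean normalized count signal (counts divided by size factors), a log2 fold change with its SE, a Wald statistic score, and a p-value with its adjusted p-value. Benjamini-Hochberg values recomputed over the 15396 genes with an adjusted p equalled the deposited ones within a relative tolerance of 1e-06. Their lowest mean count was 12.4. Per the file headers, the authors deposited for each peak a p-value, log10 values of p and false discovery rate (FDR), and a fold enrichment ratio of IP over input. They also gave the log2 difference between the arms, and log10 p and FDR of that difference. The log10 p of the difference was turned back into a p for the calls. It reaches very low values and its test is not stated, so this p is best read as a score. No source used here gives the peak caller or says whether replicates were pooled.

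Genes with an adjusted p under 0.05 and peaks with a difference p under 0.05 were counted as called. No test was run here, and intervals of fold changes are the deposited value ± the normal 95% limit of its SE. Library depth is unknown, so precision is given by the SE. The design had planned a count model in case counts per library were present. The members and gene lists were chosen with earlier results of these data known. Members named in the text were called, had extreme fold changes or the highest counts, had copies or peaks of strong enrichment, or belong to the listed structural and disease groups. Results for a few of these genes are not reported here. From each other list, up to 4 called genes of smallest p, or otherwise the 2 genes of smallest p, were named. The adjustment code was tested on simulated data. Python 3.11.15, numpy 2.4.6, pandas 2.3.3, scipy 1.17.1 and matplotlib 3.10.9 were used. Thresholds, the adjustment, the members and the peak filter were varied.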

Additional observations from a re-analysis of the deposited data

How the results depend on the processing

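The number of called ribosomal protein RNAs was 5 with the adjustment run over every gene with a p, over genes with a mean of at least 100, without the list of 9 copies (Rpl37rt and Rps23rg1 stayed in), with ribosomal genes outside the symbol rule added, or without Rps19bp1 (chosen after seeing the data). It was 6 at an adjusted p under 0.1, 2 at an adjusted p under 0.01 and 9 at an unadjusted p under 0.05, in each case all positive, as fewer or more genes pass another threshold. The median fold change stayed between 0.03 and 0.06 under the 6 alternatives. Genes with a peak numbered 5 when only peaks with an enrichment of at least 2 counted, and between 15 and 18 otherwise, one of those settings (members with means of at least 5000) being chosen after seeing the data. Difference calls numbered 3 at a p under 0.01, 0 at an FDR under 0.05 and 0 with an absolute log2 difference of at least 0.5 required. The median enrichment of 1.75 was 1.81 for peaks in 1 exon block and 1.79 without the listed copies, with no replicate error to set beside it. No paired analysis was possible because the tables hold no value for a single library, and for the same reason leaving out replicates was not run. Depth per library is unknown, and the widest member errors limit Rpl37rt, Rpl3l and Rpl34.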
